A study of Mus musculus with 4 samples.

Results

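The enzymes that make and break down prostaglandins and leukotrienes were followed in mouse myeloid-derived suppressor cells (MDSCs) after knockdown or overexpression of a long noncoding RNA. The members are Pla2g4a, Ptgs1, Ptgs2, Ptges, Hpgd, Alox5, Alox5ap, Alox15, Ltc4s and Lta4h, 10 genes chosen by name for their place in the pathway. That choice was made with earlier results of these data known. Every probe set that the platform annotation gives to 1 of these symbols and to no other gene was used, which found 15 probe sets for 9 of the 10 genes, out of 34958 probe sets with a single symbol and 45101 in all. Pla2g4a, Alox5, Alox5ap, Alox15 and Ltc4s have 1 probe set each, Ptgs2 and Hpgd have 2, and Ptges and Lta4h have 3. No probe set was annotated to Ptgs1 alone, so cyclooxygenase 1 is not analysed here.

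MDSCs are immature myeloid cells that restrain T cells. Marrow cells from C57BL/6 mice received a lentivirus and were grown for 4 days with the cytokines GM-CSF and IL-6, and the RNA of each culture was hybridised to 1 Affymetrix mouse array. The kdLNC culture carried an shRNA against lnc-C/EBPβ, which the labels call lncMDSC, and its control kdNC carried a control shRNA directed at luciferase. The oeLNC culture carried a lentivirus for overexpression of lncMDSC, and its control oeNC carried the empty overexpression lentivirus. All 4 cultures were therefore infected and cytokine treated, and no uninfected culture was analysed here. Each group is 1 array, so no difference has a replicate error, a test or a p-value. The age and number of the mice were not given in the sources used here, nor was it stated whether their marrow was pooled.

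Arachidonic acid is cut from membrane phospholipids by cytosolic phospholipase A2 (Pla2g4a). Cyclooxygenases turn it into prostaglandin H2, from which Ptges makes prostaglandin E2, a lipid known to sustain the suppressive activity of MDSCs, while Hpgd inactivates prostaglandins. In the other branch Alox5 works with its helper protein Alox5ap to make leukotriene A4, which Lta4h converts to leukotriene B4 and Ltc4s to leukotriene C4, and Alox15 oxygenates arachidonic acid at other positions.

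Pla2g4a and Ptgs2 are neighbours on mouse chromosome 1. Between them the RefSeq annotation lists 2 genes, the pseudogene Gm19136 and the long noncoding RNA Ptgs2os, and 0 protein-coding genes. Their start regions are shown because each probe set of both gave a higher value in kdLNC, and a lower one in oeLNC, than in the matching control. Both sequences are RefSeq windows on build GRCm38.p6, read 5′ to 3′ along the gene, and each ends 30 bases after the annotated start. That of Ptgs2 lies on the plus strand at chr1:150099781-150100060, and that of Pla2g4a, the nearer to Ptgs2 of its 2 windows, lies on the minus strand at chr1:149961261-149961540, so the genes are transcribed away from each other. Capitals mark the searched motifs that were found, of which the Pla2g4a window held none.
Ptgs2: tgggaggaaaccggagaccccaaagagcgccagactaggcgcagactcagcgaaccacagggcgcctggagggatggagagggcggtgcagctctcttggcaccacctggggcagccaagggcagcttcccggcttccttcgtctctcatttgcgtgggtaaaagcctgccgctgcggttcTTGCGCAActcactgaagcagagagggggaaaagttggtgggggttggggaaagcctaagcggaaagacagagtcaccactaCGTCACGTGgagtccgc
Pla2g4a: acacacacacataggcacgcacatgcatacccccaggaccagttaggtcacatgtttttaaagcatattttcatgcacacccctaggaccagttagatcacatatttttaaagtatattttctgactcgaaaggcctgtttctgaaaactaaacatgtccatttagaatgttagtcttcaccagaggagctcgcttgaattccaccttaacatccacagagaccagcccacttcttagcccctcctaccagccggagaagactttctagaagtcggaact

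The search covered both strands of each whole 300-base window, 250 bases before and 50 after the start. The first capitals in Ptgs2 are TTGCGCAA, a palindrome that C/EBP proteins are known to bind, at bases -69 to -62 from the start. It was found in 60 of 32851 windows (0.183%), and the looser TTNNGCAA, which overlaps it, in 10.8%. The second run joins CGTCA, the core of a cyclic AMP response element, at bases 14 to 18 and CACGTG, an E-box, at bases 17 to 22, so these overlap by 2 bases. CGTCA was found in 20.8% of all windows and CACGTG in 7.15%. The full element TGACGTCA (1.79% of windows), TATAAA (13.6%) and the NF-kB motif (4.51%) were not among the letters of the Ptgs2 window. Windows were found for 8 of the 10 members, 9 windows in all, with none here for Alox15 and Alox5ap. In the other member windows the only matches were TATAAA in Hpgd and in the second window of Pla2g4a. A match describes the letters only, and no binding was measured on these arrays.

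The arrays were alike in overall level, with medians of 4.17 to 4.24 on the log2 scale. The myeloid genes S100a8 and S100a9 lay between 13.32 and 13.49 and Csf1r between 11.43 and 11.87 (log2 intensity) on the 4 arrays, so myeloid genes were present as the label has it. The control arrays themselves differed widely: among 20120 probe sets above the 50th percentile of at least 1 of them (the filter used throughout, set per pair), 760 were at least 2-fold higher in oeNC than in kdNC (3.78%) and 999 at least 2-fold lower (4.97%). In place of a replicate error, each difference is set beside the SD of oeNC minus kdNC over the 500 probe sets nearest in level, here the control spread, which holds vector, culture and array, which cannot be told apart. For oeNC minus kdNC itself the spread is made from the same differences, so there it is no separate yardstick. The log2 ratio of 3′ to 5′ signal was 1.96, 1.61, 1.97 and 1.96 for beta-actin and 0.69, 0.51, 0.65 and 0.53 for Gapdh in kdLNC, kdNC, oeLNC and oeNC. It was lowest in kdNC for both genes, and its part in the results was not tested. No probe set carried the name of the targeted RNA, so its own level was not checked.

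**Figure D1:**
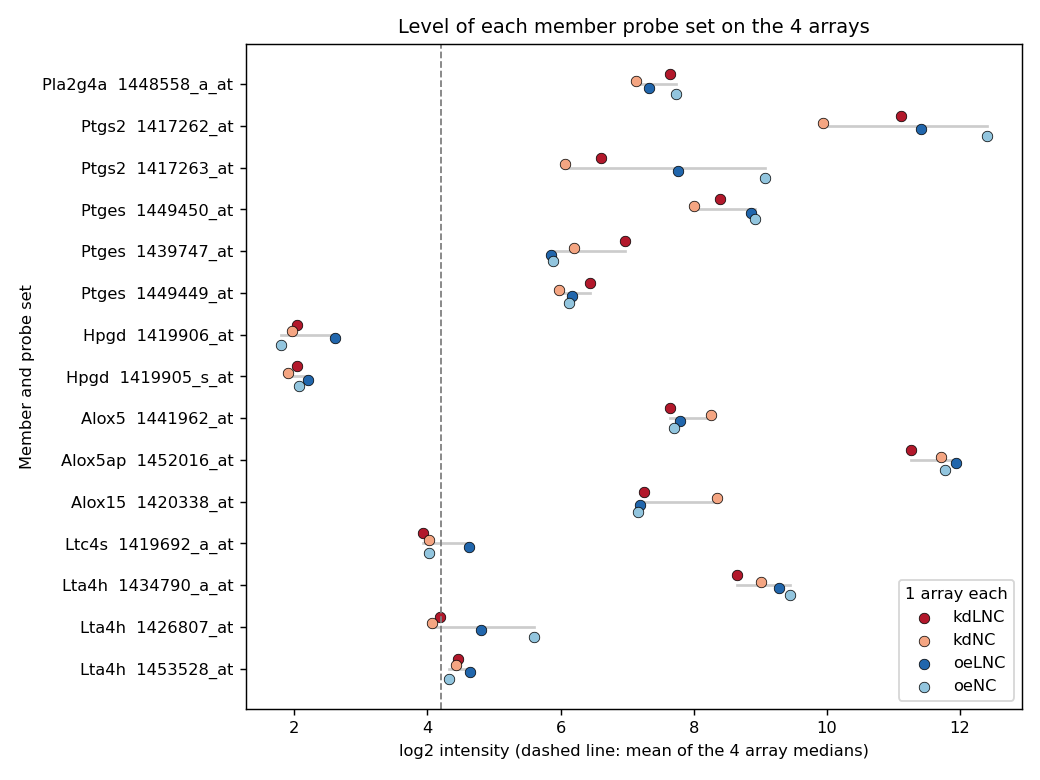
Level of each of the 15 member probe sets (rows) on the 4 arrays as log2 intensity (horizontal axis), with 1 point per array, a grey line over the range and a dashed line at the mean of the array medians. Both Ptgs2 rows spread the most, from kdNC at the low end to oeNC at the high end, while both Hpgd rows stay below the dashed line on every array.

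Pla2g4a, which supplies the arachidonic acid, had an intensity of 201 in kdLNC, against 140.5 in kdNC, and of 161 in oeLNC, against 213 in oeNC. The kdNC array was the lowest and oeNC the highest, so both lncRNA arrays lay between the controls. The log2 difference was 0.52 on knockdown, -0.40 on overexpression and 0.60 between the controls (oeNC minus kdNC), all within the control spread of 0.65 at this level.

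Ptgs2, the inducible cyclooxygenase, differed the most of the members. Its probe set 1417262_at read 2204 in kdLNC, against 983 in kdNC, a 2.24-fold higher level (log2 1.165). It read 2729 in oeLNC, against 5444 in oeNC, a 1.995-fold lower level (log2 -0.996) just under 2-fold. Its second probe set, 1417263_at, read 98.0 in kdLNC, against 66.7 in kdNC (log2 0.56), and 217 in oeLNC, against 539 in oeNC, which is 2.48-fold lower (log2 -1.31). Both probe sets gave the same order of arrays, with oeNC highest, then oeLNC, kdLNC and kdNC. The control spread was 0.48 for the first and 0.61 for the second, so the knockdown difference exceeded it at 1417262_at only and the overexpression difference at both.

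The controls were further apart in Ptgs2 than either pair was. At 1417262_at oeNC was 5.54-fold above kdNC (log2 2.47), and at 1417263_at it was 8.09-fold above (log2 3.02), so the oeLNC array, lower than its own control, still stood above kdLNC and kdNC at both probe sets. The knockdown difference shares kdNC with this control difference and the overexpression difference shares oeNC with it, so the 3 values are not separate observations. Set against the mean of both controls, 1417262_at gave -0.070 in kdLNC and 0.24 in oeLNC, and 1417263_at gave -0.95 and 0.20, so the direction in both pairs turned with the choice of control. In bulk cultures such as these, fewer cells of a type and less RNA per cell cannot be told apart.

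Ptges, the inducible prostaglandin E synthase, differed less. The probe set 1449450_at read 337 in kdLNC, against 258 in kdNC, and 463 in oeLNC, against 484 in oeNC, so the overexpression cultures were both above the knockdown ones and the controls differed by 0.91 on the log2 scale. The probe set 1439747_at read 125 in kdLNC, against 73.9 in kdNC (1.69-fold, log2 0.76, control spread 0.66), and 58.0 in oeLNC, against 59.2 in oeNC. The third, 1449449_at, read 87.2 in kdLNC, against 63.0 in kdNC, and 72.1 in oeLNC, against 70.2 in oeNC. All 3 were thus higher in kdLNC than in kdNC, by 0.39 to 0.76 on the log2 scale, and within -0.07 to 0.04 of the control in oeLNC. They disagreed on the controls, where oeNC minus kdNC ran from -0.32 to 0.91. Only 1439747_at and 1449449_at placed kdLNC highest of the 4 arrays.

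Hpgd, which inactivates prostaglandin E2, was near the bottom of every array. The probe set 1419906_at read 4.11 in kdLNC, against 3.89 in kdNC, and 6.09 in oeLNC, against 3.49 in oeNC. The probe set 1419905_s_at read 4.11 in kdLNC, against 3.75 in kdNC, and 4.62 in oeLNC, against 4.22 in oeNC. They lay between the percentiles 9.85 and 19.9 of the arrays, so no level of this enzyme can be read from them. The largest of these differences, 0.80 (log2) for 1419906_at on overexpression, shrank to 0.18 when 16 was added to each intensity before the log.

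Over the 6 probe sets of Pla2g4a, Ptgs2 and Ptges, the prostaglandin E2 branch, all 6 were higher in kdLNC than in kdNC, with a median log2 difference of 0.54, and on overexpression 5 of 6 had the lower value in oeLNC, at a median of -0.24. The medians over all probe sets above the filter were -0.03 and -0.04. The same 6 had a median of 0.76 in oeNC minus kdNC, with 5 of 6 higher. Against the mean of both controls 3 were higher and 3 lower in kdLNC (median 0.07), and 4 were higher and 2 lower in oeLNC (median 0.16).

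**Figure D2:**
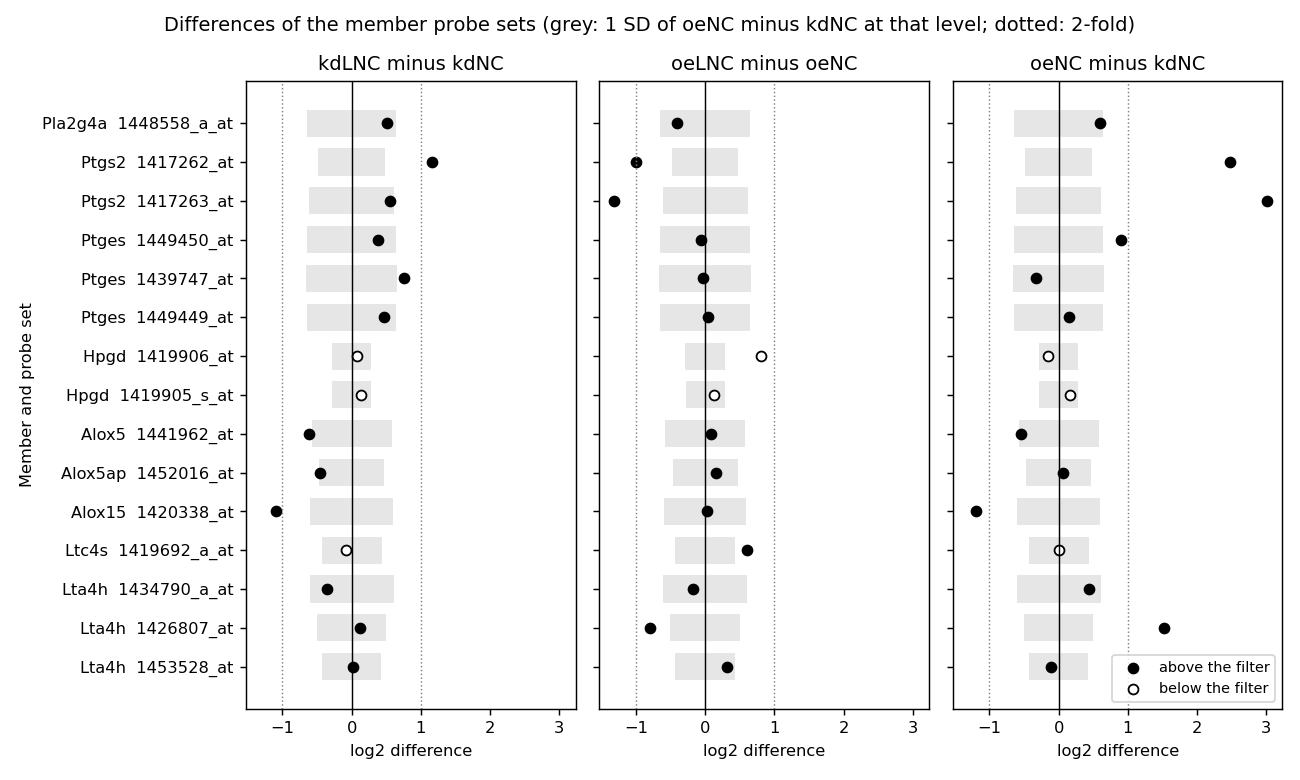
The log2 difference (horizontal axis) of each member probe set (rows) for knockdown (kdLNC minus kdNC, left), overexpression (oeLNC minus oeNC, middle) and the controls (oeNC minus kdNC, right). Grey bars span 1 control spread on either side of 0, dotted lines mark 2-fold, and open circles are below the filter. The largest distances from 0 are those of Ptgs2 in the right panel, at 2.47 and 3.02.

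In the lipoxygenase branch the knockdown differences ran mostly the other way. Alox5, the lipoxygenase that starts leukotriene synthesis, read 199 in kdLNC, against 306 in kdNC, a 1.54-fold lower level (log2 -0.62, control spread 0.58). It read 222 in oeLNC, against 209 in oeNC (log2 0.08). The kdNC array stood above the other 3, which lay within 199 to 222. Alox5ap, which presents arachidonic acid to Alox5, read 2464 in kdLNC, against 3375 in kdNC (log2 -0.45), and 3928 in oeLNC, against 3516 in oeNC (log2 0.16), both within its control spread of 0.47. Here kdLNC was the lowest array and the controls were within 0.06 of each other on the log2 scale, the closest of any member probe set above the filter.

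Alox15, the mouse 12/15-lipoxygenase, had the lowest knockdown difference of the members. It read 153 in kdLNC, against 326 in kdNC, a 2.13-fold lower level (log2 -1.09, control spread 0.60). It read 147 in oeLNC, against 143 in oeNC (log2 0.03). As for Alox5, kdNC alone was high and the other 3 arrays lay together, so oeNC was also 2.28-fold below kdNC (log2 -1.19). Against the mean of both controls the knockdown difference was -0.50 and the overexpression difference -0.56.

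Most of the eosinophil genes measured shared the high kdNC value. Of the 9 eosinophil markers looked for, 6 have a probe set of their own, and 5 of these 6 were highest in kdNC, as Alox15 was. Their summed intensity was 1422 in kdLNC, against 2699 in kdNC, and 1211 in oeLNC, against 1294 in oeNC. On the log2 scale Epx, eosinophil peroxidase, was at 7.63 in kdLNC, against 8.75 in kdNC, and at 7.09 in oeLNC, against 7.05 in oeNC. Among the 5 above the filter, 3 were at least 2-fold below kdNC in kdLNC (median -1.07), beside 0.356% of all genes. In oeNC 3 were (median -1.71), beside 4.00%, and the median on overexpression was 0.04. Ccr3, which entered both, was at 5.48 in kdNC, 4.41 in oeLNC and 3.765 in oeNC (log2 intensity), the last below that array's median. It thus passed the filter between the controls only through kdNC, and on overexpression only through oeLNC, each time where it was high. Siglecf was the exception to the order, highest in oeNC at 6.91, against 6.82 in kdNC (log2 intensity). The eosinophil receptor Il5ra was below the filter on every array, and the part of such cells in the Alox15 values was not tested.

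The enzymes that finish leukotriene synthesis differed little on knockdown. Lta4h, which makes leukotriene B4, read 400.3 in kdLNC at 1434790_a_at, against 514 in kdNC (log2 -0.36), and 623 in oeLNC, against 699.6 in oeNC (log2 -0.17), within its control spread of 0.61. The dimmer 1426807_at read 18.3 in kdLNC, against 16.8 in kdNC, and 27.9 in oeLNC, against 48.3 in oeNC, with log2 differences of 0.12 and -0.79 and a control spread of 0.50. It placed oeNC 2.87-fold above kdNC (log2 1.52, or 0.97 with 16 added), and in that comparison it passed the filter only through oeNC, where it was high, as it did on knockdown only through kdLNC. The third, 1453528_at, read 21.9 in kdLNC, against 21.6 in kdNC, and 24.8 in oeLNC, against 20.0 in oeNC. The 3 probe sets of Lta4h did not share a sign in any of the 3 comparisons.

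Ltc4s, which makes leukotriene C4, was at 15.3 in kdLNC, against 16.2 in kdNC, and at 24.7 in oeLNC, against 16.3 in oeNC. It lay below the array median on 3 of the 4 arrays and passed the filter only in the overexpression pair, through oeLNC, where it was 1.51-fold higher (log2 0.60, control spread 0.43). Mast cell and basophil markers, cells known to carry Ltc4s, had a median difference of 0.34 on overexpression over the 8 above the filter, with 6 above 0 and 0 at least 2-fold higher. Between the controls Ltc4s, below the filter there, differed by 0.008 on the log2 scale. In that comparison these markers had a median of -0.90, with 4 of 8 at least 2-fold lower and 1 higher, beside 4.00% and 3.03% of all genes. Their summed intensity was 2768 in kdLNC, against 3350 in kdNC, and 2977 in oeLNC, against 3309 in oeNC. Hdc, singled out after its values were seen, was the brightest of these markers in oeLNC (10.59) and oeNC (11.07, log2 intensity). It differed by -0.48 on overexpression and 1.335 between the controls, so the sums lean on a gene that ran against most of the list. The part of these cells was not tested.

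Over the 7 probe sets of Alox5, Alox5ap, Alox15, Ltc4s and Lta4h, 6 were above the filter in the knockdown pair, 4 of them lower in kdLNC and 2 higher, with a median log2 difference of -0.41. Of those 2, Lta4h 1426807_at passed only through kdLNC, and over the 5 above the filter on both arrays 4 were lower and 1 higher (median -0.45). In the overexpression pair 5 were higher in oeLNC and 2 lower, with a median of 0.08, and without Ltc4s, which passed only through oeLNC, 4 were higher and 2 lower (median 0.06). Against the mean of both controls 5 were lower and 1 higher in kdLNC (median -0.49).

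Taking the members as a set, few passed 2-fold. In the knockdown pair 12 of the 15 probe sets were above the filter. Of these, 1 was at least 2-fold higher in kdLNC (Ptgs2 1417262_at) and 1 at least 2-fold lower (Alox15), where 0.769% and 0.283% of all 19770 probe sets above the filter were. The median was 0.25 over these 12 and 0.12 over all 15. In the overexpression pair 13 were above the filter, 0 were at least 2-fold higher in oeLNC and 1 was at least 2-fold lower (Ptgs2 1417263_at), beside 0.279% and 1.38% of all 20065, with a median of -0.03, or 0.03 over all 15. Between the controls 3 of 12 were at least 2-fold higher in oeNC, both Ptgs2 probe sets and Lta4h 1426807_at, and 1 at least 2-fold lower (Alox15), beside the 3.78% and 4.97% of all probe sets, with a median of 0.30, or 0.16 over all 15. With probe sets of 1 gene not being independent, these counts describe 3 genes. At 1.5-fold 2 members were higher and 2 lower in kdLNC, beside 3.47% and 1.78% of all probe sets. In oeLNC 1 was higher and 3 lower, beside 3.85% and 7.28%, the 1 being Ltc4s, which passed the filter only where it was high. In oeNC 5 were higher and 1 lower than in kdNC, beside 10.7% and 13.9%. Lta4h 1426807_at, counted in these 5 and in the 3 at 2-fold, passed the filter between the controls only through oeNC, where it was high.

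The pairs were also read together. Of the 12 probe sets above the filter in all 3 comparisons, 6 had a higher value in kdLNC with a lower one in oeLNC, 3 had the reverse, and 3 had the same sign in both pairs, where 26.4%, 27.6% and 45.5% of 18911 probe sets did. The 6 were those of Pla2g4a and Ptgs2 with 1449450_at and 1439747_at of Ptges and 1426807_at of Lta4h, and the 3 were those of Alox5, Alox5ap and Alox15. Among the 6, Lta4h 1426807_at passed the filter on knockdown only through kdLNC, where it was the higher. Over all 15 probe sets, kdNC was the lowest array for 7 and oeNC the highest for 6, beside 18.3% and 25.3% of the 34958 probe sets with a single symbol. Beyond 1 control spread lay 4 of 12 on knockdown, 4 of 13 on overexpression and 5 of 12 between the controls, beside 6.46%, 13.7% and 26.3% of all probe sets above the filter. The 4 on overexpression include Ltc4s and the 5 include Lta4h 1426807_at, each above the filter on 1 array of its pair only.

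**Figure D3:**
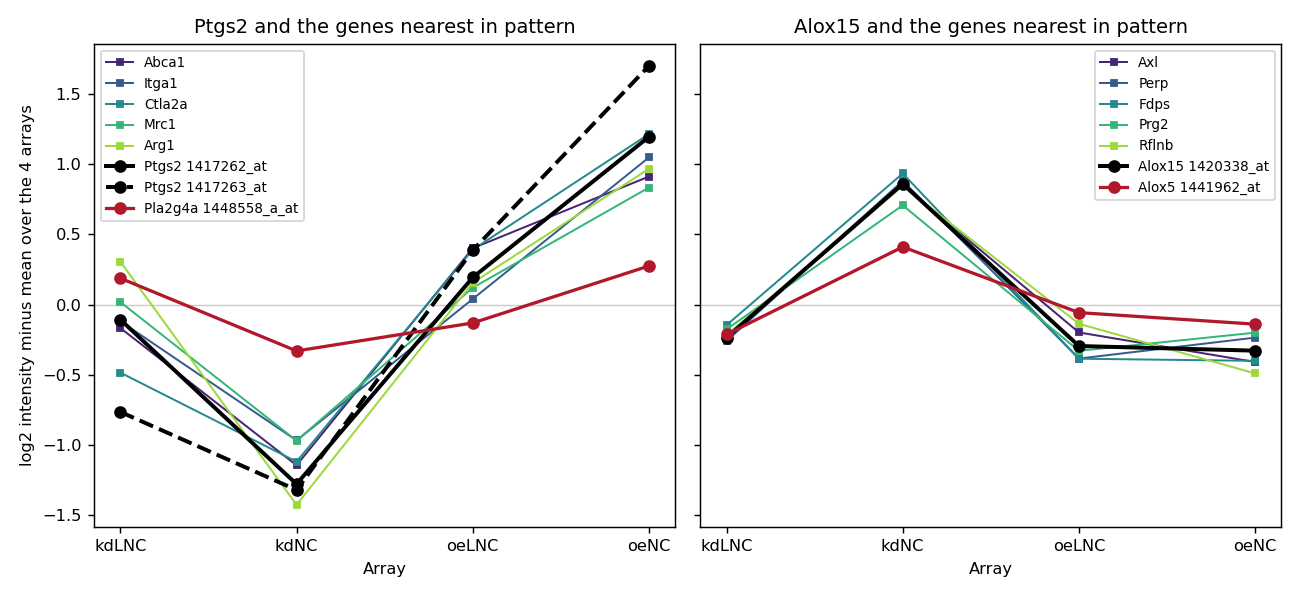
The log2 intensity minus its mean over the 4 arrays (vertical axis) on each array (horizontal axis, lines only join the points of 1 probe set) for Ptgs2 with Pla2g4a and the 5 genes nearest to Ptgs2 (left) and for Alox15 with Alox5 and the 5 genes nearest to Alox15 (right). On the left kdNC is the lowest and oeNC the highest point of each line, and on the right kdNC is the highest point of each line. The nearest genes were chosen by this profile.

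Only Ptgs2 and Alox15 spanned at least 1 log2 unit over the 4 arrays at their brightest probe set, and the genes nearest to each in pattern were sought among 1476 genes above the filter that spanned as much as 1 log2 unit, by the root mean square distance between profiles centred on their mean over the 4 arrays. For Ptgs2 these were Abca1, a cholesterol exporter (distance 0.19), Itga1, a collagen-binding integrin chain (0.19), Ctla2a, a cysteine protease inhibitor (0.22), Mrc1, the mannose receptor of macrophages (0.25), and Arg1, arginase 1 (0.25). Arg1 was higher in kdLNC than in kdNC by 1.73 on the log2 scale, lower in oeLNC than in oeNC (-0.81) and higher in oeNC than in kdNC (2.39). Mrc1 read 4.13 in kdLNC, against 3.14 in kdNC, and 4.23 in oeLNC, against 4.94 in oeNC (log2 intensity), and only the last of these lay above the array's median, so Mrc1 entered through the array where it was high and was below the filter in the knockdown pair.

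Mrc1 belongs to the monocyte and macrophage markers, of which 13 of 15 have a probe set. Their summed intensity was 10161 in kdLNC, against 11221 in kdNC, and 15059 in oeLNC, against 15071 in oeNC. Their median difference was -0.08 on knockdown over 11 above the filter, -0.10 on overexpression and 0.18 between the controls, where F13a1, and Mrc1 with the limit just given, were at least 2-fold higher in oeNC. Neutrophil markers, with 11 of 12 measured, differed most on knockdown, where 5 of 11 were under kdNC by 2-fold or more in kdLNC, beside 0.356% of all genes. The median was -0.49, with the granule gene Ltf lowest at -2.70. Of the 11 markers, 6 were below 0 and 5 above, the highest at 0.12. Their summed intensity was 39422 in kdLNC, against 46471 in kdNC, and 47466 in oeLNC, against 50738 in oeNC. The part of these cell types in the Ptgs2 and Alox5ap values was not tested.

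For Alox15 the nearest genes were Axl, a receptor tyrosine kinase (distance 0.06), Perp, a membrane protein of the p53 response (0.07), Fdps, an enzyme of the mevalonate pathway (0.08), Prg2, the major basic protein of eosinophils (0.105), and Rflnb, a filamin-binding protein (0.11). Each of the 5 was highest in kdNC, with log2 differences on knockdown of -1.14 to -0.88. The genes nearest to Alox15 and to Ptgs2 were chosen by these same values, so their directions are not a separate observation. With 4 arrays a pattern is 4 numbers, and likeness says nothing of shared control.

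Other genes of the pathway were taken from 6 lists of 59 genes, of which 54 have a probe set, read at the brightest of each gene. On knockdown 41 were above the filter, 0 of them at least 2-fold different, beside 0.478% higher and 0.356% lower at that threshold among 11505 genes. At 1.5-fold 1 was higher and 4 lower, beside 2.36% and 1.96% of all genes. These were Acsl4, which activates arachidonic acid for its return to lipids (0.89 on the log2 scale), and Mgst2 (-0.68), Ephx1 (-0.67), Anxa1 (-0.61) and Cyp4f18 (-0.60), named after their values were seen. Mgst2 can make leukotriene C4, Ephx1 is an epoxide hydrolase, Anxa1 is a glucocorticoid-induced protein that restrains phospholipase A2, and Cyp4f18 inactivates leukotriene B4. The other probe sets of Acsl4 gave -0.03 and 0.06, that of Anxa1 gave -0.56 and that of Cyp4f18 gave -0.14. Of the 41, 29 were below 0 and 12 above, with a median of -0.13, where the median of all genes was -0.05.

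On overexpression 40 of these genes were above the filter and 0 differed at least 2-fold, beside 0.295% higher and 0.809% lower among 11869 genes. At 1.5-fold 3 were higher and 2 lower, beside 3.93% and 5.38%. Higher were Ptger2, a prostaglandin E2 receptor (0.82), Pla2g6, a calcium-independent phospholipase (0.65), and Ptger1, another prostaglandin E2 receptor (0.59). Lower were Cmklr1, a receptor for chemerin (-0.82), and Cyp4f13, a cytochrome P450 (-0.80). These 5 were named after their values were seen, and the probe sets of 2 disagreed, since others of Pla2g6 gave -0.66 and 0.54 and that of Ptger1 gave -0.59.

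Between the controls 41 were above the filter, with 1 at least 2-fold higher in oeNC and 2 at least 2-fold lower, beside 3.03% and 4.00% of 11723 genes, and at 1.5-fold 1 higher and 6 lower, beside 9.22% and 12.2%. Cyp4f13 was at 5.09 in kdLNC, 4.70 in kdNC, 5.32 in oeLNC and 6.12 in oeNC on the log2 scale, the order of Ptgs2. The prostacyclin receptor Ptgir was at 6.55 in kdLNC, against 6.65 in kdNC, and at 5.62 in oeLNC, against 5.42 in oeNC. The cysteinyl leukotriene receptor Cysltr2 was at 4.33 in kdLNC, against 4.75 in kdNC, and at 4.09 in oeLNC, against 3.53 in oeNC, so it passed the filter here only through kdNC, where it was high, and was below it in the overexpression pair. Ptger2 was just under 2-fold lower in oeNC than in kdNC, with 8.45 in kdLNC, against 8.35 in kdNC, and 8.17 in oeLNC, against 7.35 in oeNC.

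By role, the receptors differed most between the controls. All 6 prostanoid receptors above the filter were lower in oeNC than in kdNC (median -0.48), while on knockdown their differences ran from -0.18 to 0.09 (median -0.09). On overexpression 6 of 7 were higher in oeLNC (median 0.30), 2 of them at least 1.5-fold, and Ptgdr2 among the 6 passed the filter only through oeLNC. The leukotriene and resolving lipid receptors had medians of -0.15 on knockdown, 0.32 on overexpression and -0.49 between the controls, over 5, 4 and 5 genes above the filter. The other prostanoid synthases had medians of -0.04, -0.17 and -0.02, and the genes of prostanoid inactivation and transport of -0.22, 0.14 and -0.02 in the same order. Between the controls, Cysltr2 among these receptors and Hpgds among the synthases (-0.73) passed the filter only through kdNC, where they were high. The other synthases gave -0.10 (Ptges2), 0.05 (Ptgds) and 0.20 (Tbxas1) there. Phospholipases and arachidonate handling gave -0.13, 0.10 and 0.07, and the other lipoxygenases with leukotriene metabolism and transport -0.20, -0.03 and -0.16. No test compared these lists with other genes.

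**Figure D4:**
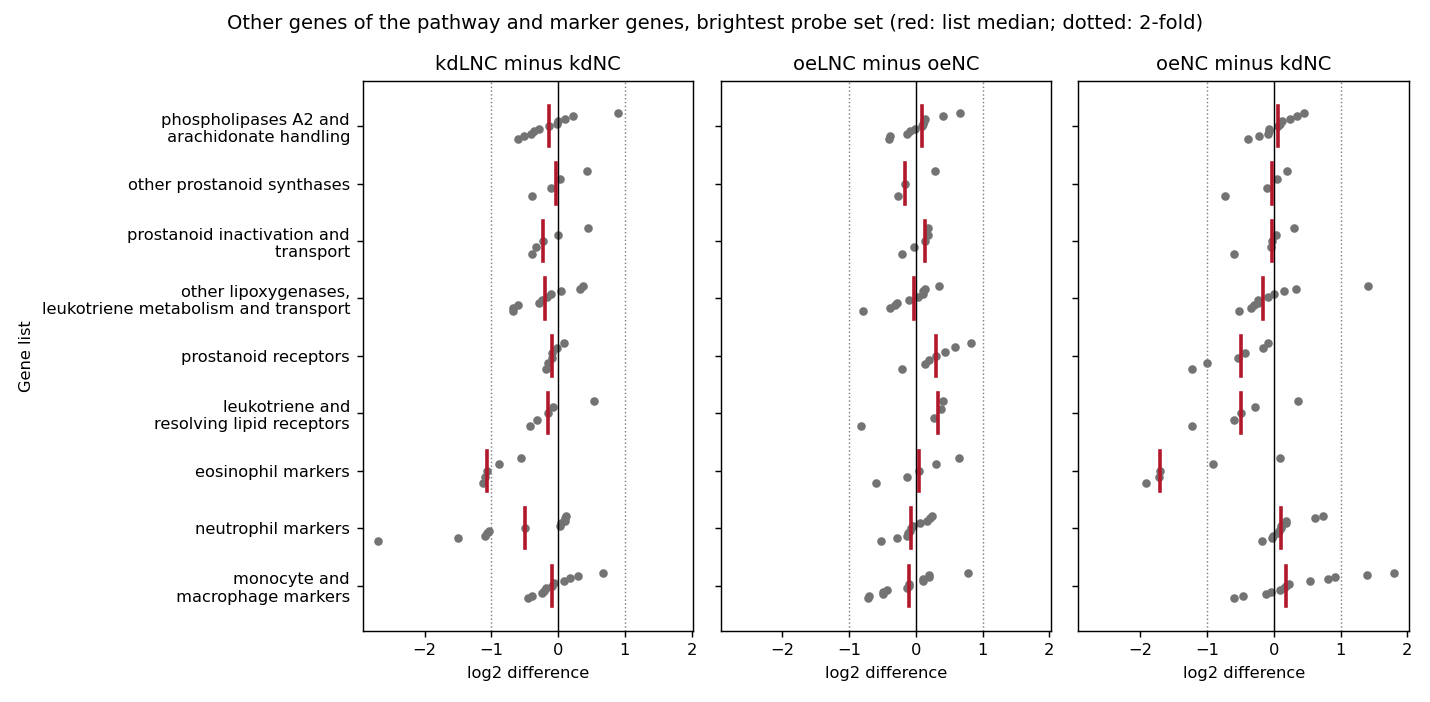
The log2 difference (horizontal axis) of each gene above the filter at its brightest probe set, by list (rows), in the 3 comparisons, with a red bar at each list's median and dotted lines at 2-fold. The 6 upper rows are the other pathway genes, nearly all within 2-fold, and the 3 lower rows are markers, where the eosinophil median lies at -1.07 on knockdown and -1.71 between the controls.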

How the data were processed

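RNA of 4 cultures was measured on 4 Affymetrix mouse arrays, 1 per group, with groups taken from the labels. The authors deposited intensity values per probe set on a linear scale, and the submitters' processing notes name RMA, with no version or settings. No background estimate was used here, so dim values such as those of Hpgd have no order. The log2 of the deposited intensities was taken and differences were formed with Python 3.11.15, numpy 2.4.6 and pandas 2.3.3, with statsmodels 0.14.6 for loess and matplotlib 3.10.9 for plots. Probe sets annotated to several genes (932) or none (9211) were left out. Counts cover probe sets above the 50th percentile on at least 1 array of a pair, and genes outside the members are read at their brightest probe set. The limma test that the methods name could not be fitted with 1 array per group, and precision is limited by how few arrays there are. The calculation was tested on simulated data, which checks the code and not the differences reported here.

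The 14 gene lists, that of the members included, were chosen with earlier results of these data known. The naming rule takes all members with every probe set, up to 4 genes per direction and comparison that differ at least 2-fold in the other pathway lists, the 5 genes nearest in pattern to each member spanning at least 1 log2 unit, and up to 3 genes per marker list. Promoter windows were matched to RefSeq by symbol.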

Additional observations from a re-analysis of the deposited data

How the results depend on the processing

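No paired analysis was possible because there is a single array per group, and for the same reason no replicate could be left out. Tried in place of the deposited scale were arrays centred on their medians, quantile normalization, loess by pair and an offset of 16 before the log, and beside them no filter or one at the 70th percentile, exclusion of probe sets ending in _s_at or _x_at, the brightest probe set of each gene, the mean of both controls as the control, and thresholds of 1.5-fold and 3-fold. Of 210 member differences recomputed, 202 stayed within the control spread of their value. With the mean of both controls Ptgs2 turned, to -0.070 at 1417262_at on knockdown and 0.20 at 1417263_at on overexpression, and 10 of the 15 sign changes among the 210 came from that control. The cause was not tested.

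A median was taken as moved where it shifted by 0.2 on the log2 scale, a limit set by choice, or changed sign. The knockdown median of 0.25 became -0.36 with the brightest probe set of each gene and -0.21 with the mean of both controls. The overexpression median of -0.03 became 0.050 after quantile normalization, 0.022 after loess, 0.033 with no filter and 0.12 with the mean of both controls, so it has no settled sign. With the mean of both controls 0 member probe sets were at least 2-fold higher or lower in kdLNC and 0 lower in oeLNC. At 1.5-fold the counts were 2 higher and 2 lower in kdLNC (3.47% and 1.78% of all probe sets), 1 higher and 3 lower in oeLNC (3.85% and 7.28%), and 5 higher in oeNC than in kdNC (10.7%). Of those higher, Ltc4s in oeLNC and Lta4h 1426807_at in oeNC passed the filter only on the array where they were high. At 3-fold the counts were 0 higher and 0 lower in kdLNC, 0 higher and 0 lower in oeLNC, and 2 higher (both Ptgs2) and 0 lower in oeNC. The share of all probe sets was not taken at 3-fold. With the brightest probe set 0 were lower in oeLNC and 1 was higher in oeNC, and after median centring 2 were lower in oeLNC, since Ptgs2 1417262_at then passed 2-fold.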

Other observations

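Markers of 3 further cell types were read on the same arrays. Of 7 B lineage markers 6 have a probe set, and their summed intensity was 8049 in kdLNC, against 7564 in kdNC, and 5260 in oeLNC, against 4391 in oeNC. All 6 were lower in oeNC than in kdNC, 4 of them at least 2-fold, with a median log2 difference of -1.18, while the median was 0.08 on knockdown. The B cell gene Ms4a1 (CD20) was at 10.43 in kdLNC, against 10.29 in kdNC, and at 8.31 in oeLNC, against 8.20 in oeNC. Megakaryocyte and platelet markers, of which 7 of 9 have a probe set, had a median of -0.36 on knockdown, with 4 of 6 above the filter lower in kdLNC, and of -0.01 between the controls. Vwf, 1 of the 4, was at 4.39 in kdNC, against 4.00 in kdLNC and 3.68 in oeNC (log2 intensity). In both comparisons it passed the filter only through kdNC, where it was high. The platelet list summed to 704 in kdLNC, against 593 in kdNC, and 683 in oeLNC, against 929 in oeNC. Without Pf4, a platelet chemokine singled out after its values were seen, the sum was 267 in kdLNC, against 339 in kdNC, and 334 in oeLNC, against 319 in oeNC, so the higher sum in kdLNC rests on that gene. Stromal markers, all 7 with a probe set, summed to 150.1 in kdLNC, against 163 in kdNC, and 164 in oeLNC, against 147 in oeNC. The part of these cells in the member values was not tested.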
